A study of Mus musculus with 9 samples.

Results

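The genes described here are a chosen list of 9 members of the AP-1 transcription factor family: Fos, Fosb, Fosl1, Fosl2, Jun, Junb, Jund, Atf3 and Batf. They were taken from 22173 listed genes by exact match of the symbol. The counts hold further relatives, among them Jdp2, Batf2, Batf3, Atf2 and Atf7, which are placed with the other bZIP factors below. A summed AP-1 level here is therefore the sum over the 9 listed genes. All 9 passed the filter on low counts, with 12094 genes tested in all. The study embedded neutrophils cultured from wild-type mouse bone marrow in gelatin methacryloyl (GelMA), a light-cured hydrogel, and kept them there for 2 days, with medium containing 10% fetal bovine serum (FBS). Stiffness was low at 1.5 kPa, middle at 2.6 kPa or high at 5.7 kPa. Each stiffness has 3 libraries of poly(A) RNA, and the low gel is the study's control. Genotype, medium and time in the gel are the same in all 9 libraries, so stiffness and the replicate number are what the labels distinguish. The sources used here give neither the sex and age of the mice nor the purity of the cells. Nor do the labels tell if the replicates came from different mice or cultures. The p-values therefore reflect the variation among these 9 libraries alone, and it may be technical.

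AP-1 is a dimer of basic leucine zipper proteins. Jun proteins pair with one another or with a Fos protein, whereas Fos proteins need a partner, and the dimers bind a short palindromic DNA element in the control regions of many genes. Fos, Fosb, Jun, Junb and Atf3 are immediate early genes, transcribed within minutes of a stimulus through MAP kinases and factors already present, while Fosl1 and Fosl2 (Fra-1 and Fra-2) usually follow later and their proteins last longer. In myeloid cells these factors are known for roles in differentiation and in the response to stress and cytokines.

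Libraries held 13172879 to 19486546 counts. The 3 replicate 1 libraries stood apart from the other 6: the first principal component carried 68.1% of the variance and separated them, and the chi-square per degree of freedom between libraries of a group was 138 to 203 with replicate 1 against 5.03 to 11.3 between replicates 2 and 3. The summed level of 10 neutrophil markers was 2899 to 3369 CPM (normalised counts, scaled by TMM to the library size) in the replicate 1 libraries and 12011 to 21701 CPM in the other libraries. Across groups the same sum was 2899 to 21701 CPM in low, 3369 to 18147 CPM in middle and 3332 to 12131 CPM in high gels. The lowest value of each group is its replicate 1 library. From low to high gels the sum went from 2899 to 3332 CPM in replicate 1 but from 21701 to 12131 CPM in replicate 2. High replicate 3 had 12011 CPM. The 12 monocyte and macrophage markers summed to 8098 to 8539 CPM in low, 6460 to 7301 CPM in middle and 5569 to 7714 CPM in high gels. RNA of monocyte or macrophage type, which the sum does not separate, was thus present beside that of neutrophils in every library. Gpnmb weighed heavily in this sum, with 5709, 3354 and 3420 CPM in low and 4609, 1411 and 1165 CPM in high gels. Csf1r went the other way, with 616, 1035 and 992 CPM in low and 778, 1712 and 1606 CPM in high gels. The sum is therefore not a measure of all monocyte and macrophage markers alike. Of the neutrophil markers, 0 rose and 3 of 10 fell in high against low gels with the replicate number as a block, and 3 rose and 4 fell of the 12 monocyte and macrophage markers. The same fit called 6.72% of all tested genes higher and 8.73% lower. The median log2 fold change was -0.73 for the neutrophil and -0.38 for the monocyte and macrophage markers, beside -0.0026 over all tested genes. The summed levels of the B cell (33.4 to 223 CPM), T and NK cell (0.888 to 8.45 CPM), mast cell and basophil (22.7 to 76.8 CPM), eosinophil (5.77 to 75.1 CPM), erythroid (232 to 807 CPM), megakaryocyte (25.7 to 213 CPM), dendritic cell (12.2 to 27.9 CPM) and stromal (36.9 to 72.0 CPM) markers were lower, and no marker present in the files was at 0 in every library. In bulk libraries, fewer cells of a type and less RNA per cell cannot be told apart, and the part of cell makeup in the results that follow was not tested.

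Because the replicate numbers separate the libraries so strongly, each comparison was fitted without the number and again with the number as a block. In high against low gels, 0 of the 9 AP-1 genes passed edgeR's test without the block, where 0.091% of all tested genes did. Without the block, 6 members had an unadjusted p under 0.05, as did 7.72% of all tested genes, and DESeq2 called 1 member and 2.76% of all genes. With the block, Fosl1 and Batf rose and Fos and Jun fell. The same fit called 6.72% of all tested genes higher and 8.73% lower, so the count of members called in each direction is to be read against that background. Fosl2, Fosb, Jund, Junb and Atf3 did not pass.

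Ordered by transcript level per kb of gene size (normalised count per kb, mean ± SD over the 9 libraries), Fos was first with 682 ± 202 and Junb followed with 513 ± 68.5. Atf3 had 250 ± 151, Jun 145 ± 60.5 and Jund 104 ± 22.3. Fosb had 60.5 ± 34.7, Fosl2 56.5 ± 37.5, Batf 43.4 ± 11.2 and Fosl1 3.76 ± 2.91 CPM per kb. Neighbours in this order mostly overlapped. Fos exceeded Junb in 7 of 9 libraries, the exceptions being the high replicate 2 and 3 libraries. Fosb exceeded Fosl2 in 5 of 9. Jund above Fosb and Batf above Fosl1 were the neighbouring steps that held in 9 of 9 libraries. Fosl1 was the least abundant member, with 26 to 236 raw counts per library, whereas Fos had 13031 to 36499.

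**Figure D1:**
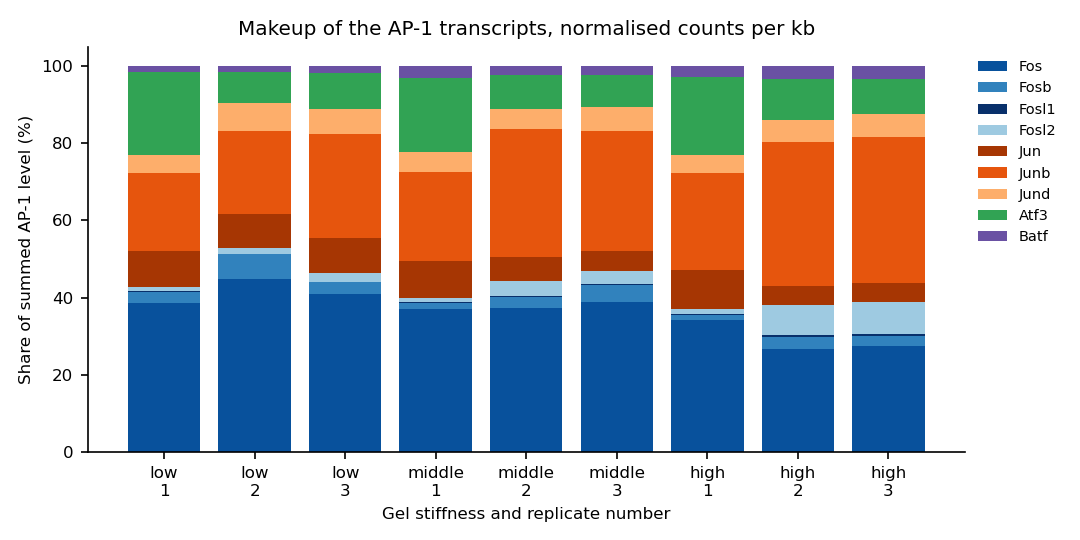
Share of each member in the summed AP-1 level (normalised counts per kb, in %) in each of the 9 libraries, from low to high gels and by replicate number, with Fos family genes in blue, Jun family genes in orange, Atf3 in green and Batf in purple. The Fos family takes 37.1% to 38.7% in the 3 high libraries and 42.6% to 52.8% in the 3 low libraries, and Atf3 takes a wider band in the replicate 1 libraries.

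As shares of the summed level of the 9 listed genes, the Fos family made up 42.6%, 52.8% and 46.4% in the low libraries of replicates 1, 2 and 3. It made up 40.0%, 44.4% and 46.8% in middle and 37.1%, 38.0% and 38.7% in high gels. All 3 high libraries lay below all 3 low libraries, although the normalised counts of Fos itself overlapped between these groups. No other gene set was measured this way, so the separation is description only. The Jun family share was 34.4%, 37.7% and 42.4% in low, 37.8%, 44.5% and 42.6% in middle and 39.9%, 48.1% and 48.8% in high gels, where high replicate 1 lay inside the low range. Junb alone made up 25.1%, 37.6% and 38.1% of the sum in high gels, against 20.3%, 21.6% and 27.0% in low gels. Shares are bound to each other, so a lower share of Fos raises the others.

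Of the 4 members called with the block, 3 have an entry in RefSeq's promoter table, and their 250 bases before the annotated start are shown because these genes moved with stiffness in that fit. The build of the table is GRCm38.p6, which is not the GRCm39 build of the counts. Sequences run 5′ to 3′ on the gene's strand, and capitals mark TGACG, the core of the cyclic AMP response element, in Fos and Batf, and TTACCTCA and TGACATCA, the upstream and downstream variant AP-1 elements, in Jun.
Fos (+ strand, chr12:85473640-85473889): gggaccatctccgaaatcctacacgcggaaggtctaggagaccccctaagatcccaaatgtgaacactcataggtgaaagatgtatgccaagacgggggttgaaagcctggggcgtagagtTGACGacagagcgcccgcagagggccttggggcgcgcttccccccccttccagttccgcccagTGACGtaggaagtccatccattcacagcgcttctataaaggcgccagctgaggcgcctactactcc
Jun (- strand, chr4:95052223-95052472): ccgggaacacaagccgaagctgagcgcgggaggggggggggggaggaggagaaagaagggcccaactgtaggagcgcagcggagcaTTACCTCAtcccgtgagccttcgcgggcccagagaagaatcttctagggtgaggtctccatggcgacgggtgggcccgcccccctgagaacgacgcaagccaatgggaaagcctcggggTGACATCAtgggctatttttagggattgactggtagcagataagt
Batf (+ strand, chr12:85686470-85686719): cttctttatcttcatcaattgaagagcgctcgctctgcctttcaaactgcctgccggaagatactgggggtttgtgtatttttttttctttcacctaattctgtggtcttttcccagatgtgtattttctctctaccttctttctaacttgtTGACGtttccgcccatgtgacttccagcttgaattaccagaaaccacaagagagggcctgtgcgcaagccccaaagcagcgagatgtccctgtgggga
Fos held TGACG with its first base 129 and 66 bases before the start, and the word TATAA 33 bases before it. Jun held TTACCTCA 164 and TGACATCA 45 bases before its start, and Batf held TGACG 98 bases before its start.

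The words were chosen after these sequences had been read, both strands were searched, and TGACG is contained in the full element TGACGTCA. Of 32851 promoters searched over the same 250 bases, 17.8% held TGACG, 1.55% TGACGTCA, 6.75% the AP-1 element TGANTCA, 2.93% TGACATCA, 0.728% TTACCTCA and 22.8% TATAA. Of the 8 members in the table, 5 held TGACG (Fos, Fosb, Junb, Atf3 and Batf) and 0 held TGANTCA or TGACGTCA in this window. Fosl1 is not in the table.

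**Figure D2:**
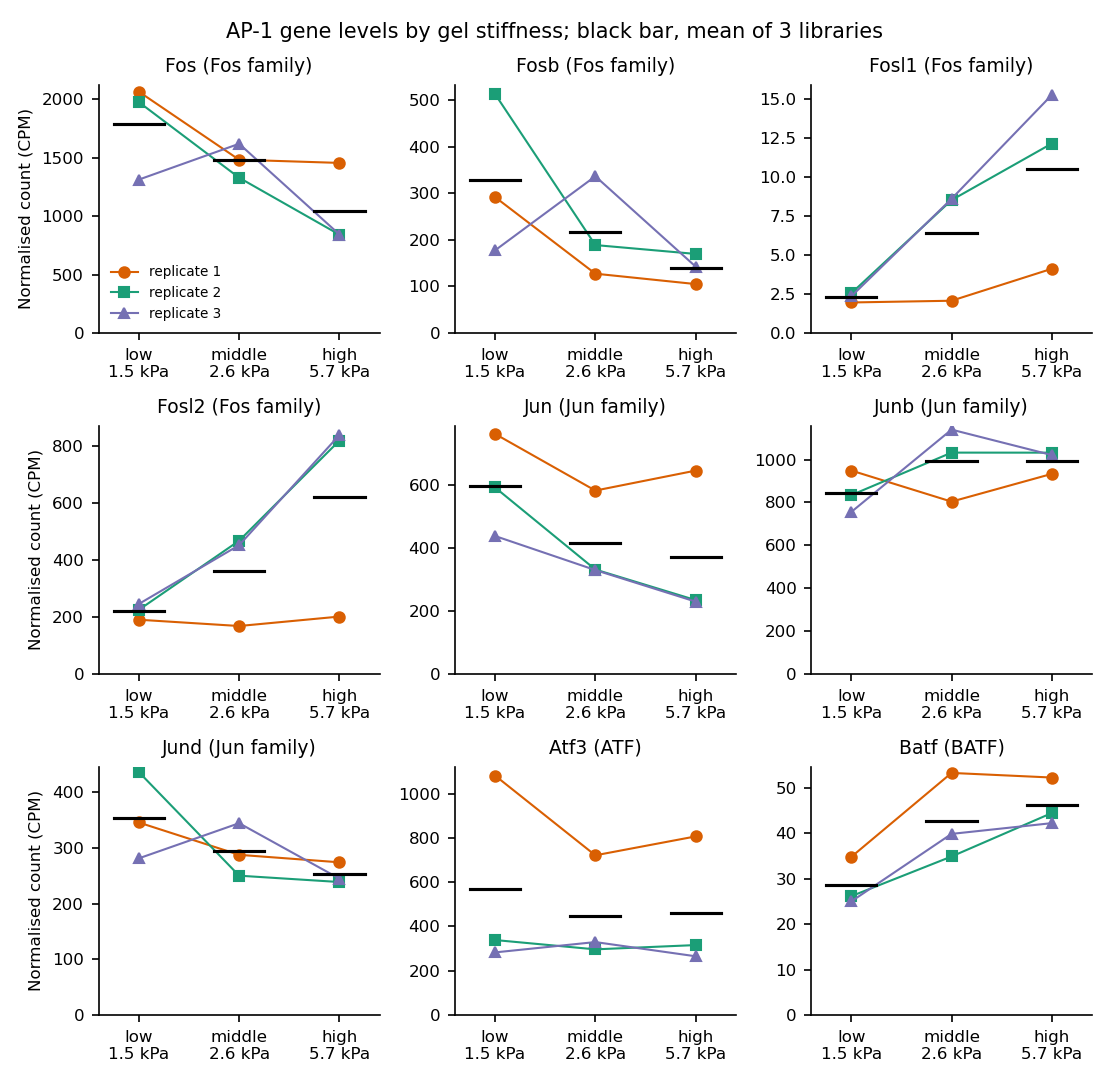
Normalised count (CPM, linear axis from 0) of each AP-1 gene in low, middle and high gels, with 1 point per library, lines joining libraries of the same replicate number and a black bar at the mean of 3 libraries. Fosl2 climbs to 818 and 837 CPM in the high replicate 2 and 3 libraries while the replicate 1 line stays between 168 and 201 CPM.

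Among the Fos family, Fos encodes the prototype partner of Jun. It had 2067, 1978 and 1314 CPM in the low libraries of replicates 1, 2 and 3, 1484, 1330.1 and 1621 CPM in middle and 1457, 842 and 844 CPM in high gels. High replicates 2 and 3 were the lowest of the 9 libraries, and high replicate 1 lay above low replicate 3, so the groups overlapped, although high was below low within each replicate number. The log2 fold change of high over low was -0.77 ± 0.28 without the block (SE, edgeR adjusted p = 0.501) and -0.79 ± 0.20 with it (adjusted p = 0.0297). The call with the block ended without 1 library in 5 cases: without low replicate 1 (adjusted p = 0.0876), low replicate 2 (0.0994), middle replicate 2 (0.0674), high replicate 2 (0.162) or high replicate 3 (0.132). It also ended without the filter on low counts (0.0837) and without all of replicate 2 (0.247), while the direction was the same in 15 of 15 settings with the block.

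Fosb, which encodes a Fos protein that is likewise an immediate early product, had 292, 514 and 178 CPM in low, 128, 189 and 337 CPM in middle and 105, 170.0 and 143 CPM in high gels. Every high library lay below every low library, but the low libraries spread widely, with replicate 2 the highest and replicate 3 the lowest, and middle replicate 3 was higher than 2 of the 3 low libraries. Of all tested genes, 6.76% had high libraries wholly below low ones, and 5.9% wholly above. Among the members, Fosb and Jund were in the lower class and Fosl1 and Batf in the higher. High over low had a log2 fold change of -1.23 ± 0.46 without the block (adjusted p = 0.530) and -1.24 ± 0.49 with it (adjusted p = 0.170). With the block it was called only when low replicate 3 (adjusted p = 0.00826) or all of replicate 3 (0.00115) was left out.

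Fosl1, which encodes Fra-1, a Fos protein without the C-terminal activation domain of Fos, had 1.96, 2.55 and 2.35 CPM in low, 2.07, 8.53 and 8.61 CPM in middle and 4.12, 12.2 and 15.3 CPM in high gels. The high libraries lay above all low libraries, and the replicate 1 libraries were low in the middle and high gels alike. Fosl1 had a log2 fold change of high over low of 2.20 ± 0.62 without the block (adjusted p = 0.340) and 2.11 ± 0.30 with it (adjusted p = 0.00122). With the block Fosl1 was called in 14 of 15 settings, the exception being without all of replicate 2 (adjusted p = 0.0658). DESeq2 without the block called Fosl1 (adjusted p = 0.0221) and no other member.

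Fosl2, which encodes the related Fra-2, had 190.2, 225 and 245 CPM in low, 168, 467 and 451 CPM in middle and 201, 818 and 837 CPM in high gels. In replicates 2 and 3 the high libraries held more than 3 times the low level, whereas the high replicate 1 library was below low replicates 2 and 3, so the groups overlapped. For high over low this is a log2 fold change of 1.49 ± 0.56 without the block (adjusted p = 0.537) and 1.23 ± 0.39 with it (adjusted p = 0.104). With the block it was called without low replicate 1 (adjusted p = 2.22e-06), without high replicate 1 (0.0302), without all of replicate 1 (7.01e-10) and by DESeq2 (0.0199).

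In the Jun family, Jun encodes the strongest activator of transcription. It had 764, 594 and 439 CPM in low, 584, 333 and 331 CPM in middle and 647, 235 and 230.4 CPM in high gels. High replicates 2 and 3 were the lowest libraries and high replicate 1 exceeded low replicates 2 and 3, so the groups overlapped, with high below low within each replicate number. Its log2 fold change was -0.69 ± 0.45 without the block (adjusted p = 0.867) and -0.83 ± 0.18 with it (adjusted p = 0.0207). The call with the block ended without low replicate 2 (adjusted p = 0.0612), low replicate 3 (0.0842), middle replicate 2 (0.0621), high replicate 2 (0.0966) or high replicate 3 (0.102). It ended too without the filter (0.0620), without all of replicate 2 (0.170) and without all of replicate 3 (0.152), with the same direction in 15 of 15 settings.

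Junb and Jund encode Jun proteins that activate more weakly and can oppose Jun at some promoters. Junb had 949, 834 and 756 CPM in low, 804, 1033 and 1140 CPM in middle and 934, 1032 and 1021 CPM in high gels. The high and low ranges overlapped through low replicate 1, and high was above low in replicates 2 and 3 and just below it in replicate 1. The log2 fold change of high over low was 0.23 ± 0.18 without the block (adjusted p = 0.912) and 0.23 ± 0.13 with it (adjusted p = 0.272). With the block Junb was called without low replicate 1 (adjusted p = 0.0119) and without all of replicate 1 (0.00477).

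Jund had 346, 436 and 281 CPM in low, 288, 250.1 and 344 CPM in middle and 274, 239 and 245 CPM in high gels. The 3 high libraries lay just below the lowest low library. Its log2 fold change was -0.49 ± 0.20 without the block (adjusted p = 0.579) and -0.49 ± 0.18 with it (adjusted p = 0.103). With the block it passed without low replicate 3 (adjusted p = 0.0306) and with DESeq2 (0.0235).

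Atf3, a stress-induced factor that represses transcription as a homodimer and can pair with Jun proteins, had 1082, 339 and 283 CPM in low, 722, 297 and 330 CPM in middle and 807, 316 and 265 CPM in high gels. The 3 replicate 1 libraries held the 3 highest values of the 9, and within replicates 2 and 3 the gels differed little. The log2 fold change of high over low was -0.30 ± 0.65 without the block (adjusted p = 0.994) and -0.21 ± 0.13 with it (adjusted p = 0.298).

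Batf, a small leucine zipper protein that lacks an activation domain and pairs with Jun proteins, had 34.8, 26.2 and 25.0 CPM in low, 53.3, 34.9 and 39.9 CPM in middle and 52.3, 44.5 and 42.3 CPM in high gels. Every high library lay above every low library. Middle replicate 2 (34.9 CPM) and low replicate 1 (34.8 CPM) were nearly equal, so the middle and low ranges met. Batf had a log2 fold change of high over low of 0.69 ± 0.21 without the block (adjusted p = 0.357) and 0.70 ± 0.10 with it (adjusted p = 0.00107). With the block Batf was called in 15 of 15 settings, with adjusted p up to 0.0304.

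**Figure D3:**
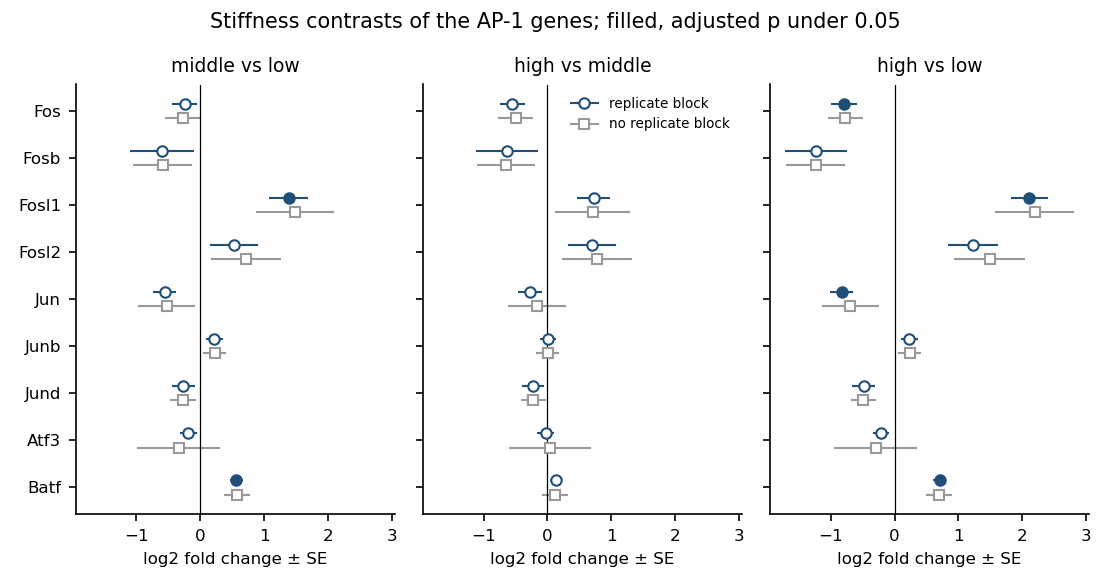
Log2 fold change ± SE of each AP-1 gene for middle against low, high against middle and high against low gels (3 libraries per group), with circles for the fit with the replicate number as a block and squares for the fit without it; filled symbols have an adjusted p under 0.05. Only circles are filled: Fosl1 and Batf in middle against low, and Fos, Fosl1, Jun and Batf in high against low.

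In middle against low gels, which share the low libraries with the comparison above, 0 members were called without the block by edgeR or by DESeq2. In edgeR 2 members and 2.63% of all genes had an unadjusted p under 0.05. With the block Fosl1 rose by a log2 fold change of 1.39 ± 0.30 (adjusted p = 0.0454) and Batf by 0.57 ± 0.10 (adjusted p = 0.0163), where 0.81% of all tested genes were called higher and 1.03% lower. Jun had -0.56 ± 0.18 (adjusted p = 0.209) and Fos -0.24 ± 0.20 (adjusted p = 0.646), so neither passed. Fosl1 lost this call without any 1 of low replicates 2 (adjusted p = 0.221) and 3 (0.256), middle replicates 1 (0.0781), 2 (0.220) and 3 (0.237) and high replicates 2 (0.104) and 3 (0.0579), and without all of replicate 2 (0.426) or 3 (0.450). Batf lost it without low replicate 2 (0.0566), low replicate 3 (0.104), middle replicate 1 (0.120) or middle replicate 3 (0.114), and without all of replicate 2 (0.119) or 3 (0.220).

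In high against middle gels no member was called with or without the block, by edgeR or DESeq2. In edgeR 2 members with the block and 0 without it had an unadjusted p under 0.05, as did 10.5% of all tested genes with the block and 1.48% without it. Of all tested genes, the blocked edgeR fit called 0.0165% higher and 0% lower. Fosl1 had 0.72 ± 0.26 (adjusted p = 0.351), Fosl2 0.70 ± 0.38 (adjusted p = 0.605) and Fos -0.55 ± 0.20 (adjusted p = 0.384) as log2 fold changes with the block. An F test of any difference among the 3 groups called Fosl1 (adjusted p = 0.00428) and Batf (adjusted p = 0.00302) with the block, where it called 9% of all tested genes. Without the block it called no member, and 2 members and 4.56% of all genes had an unadjusted p under 0.05. With the block, Jun (0.0530) and Fos (0.0829) lay just outside the threshold of 0.05.

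The replicate numbers were also compared, and 5 of the 9 members were called, a share near that of all tested genes in these comparisons. In the fit with stiffness and replicate number, Atf3 was higher in replicate 1 than in replicate 2 by a log2 fold change of 1.44 ± 0.13 (adjusted p = 5.18e-06), Jun by 0.88 ± 0.18 (adjusted p = 0.00340) and Batf by 0.42 ± 0.10 (adjusted p = 0.00315). Fosl1 was lower by -1.41 ± 0.30 (adjusted p = 0.00186) and Fosl2 by -1.20 ± 0.39 (adjusted p = 0.0457) on the same scale. Between replicates 1 and 2 this fit called 29.4% of all tested genes higher and 29.9% lower in replicate 1. Against replicate 3 the same 5 members were called in the same directions, with 1.56 ± 0.13 for Atf3, 1.05 ± 0.18 for Jun, 0.40 ± 0.10 for Batf, -1.53 ± 0.30 for Fosl1 and -1.23 ± 0.39 for Fosl2, where 30.5% of all genes were higher and 30.6% lower. Without the filter on low counts Fosl2 lost both calls (adjusted p = 0.0866 and 0.0792). Fos, Fosb, Junb and Jund were not called in either comparison. Between replicates 2 and 3 edgeR called 0% of all tested genes and 0 members, with 150 of 12094 genes at an unadjusted p under 0.05.

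Beside these member values, 9 of 10 neutrophil markers were lower and 0 higher in replicate 1, against replicate 2 and against replicate 3. Of 10 heat shock genes, 7 were higher and 1 lower in each. Of the 12 monocyte and macrophage markers, 8 were lower in each, with 1 higher against replicate 2 and 2 against replicate 3. Of all tested genes, 29.4% were higher and 29.9% lower against replicate 2, and 30.5% and 30.6% against replicate 3. Ddit3, which encodes the stress-induced bZIP protein CHOP, had 296, 248 and 257 CPM in the replicate 1 libraries of low, middle and high gels and 53.3 to 72.0 CPM in the other 6 libraries. Their part in the results on the members was not tested.

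**Figure D4:**
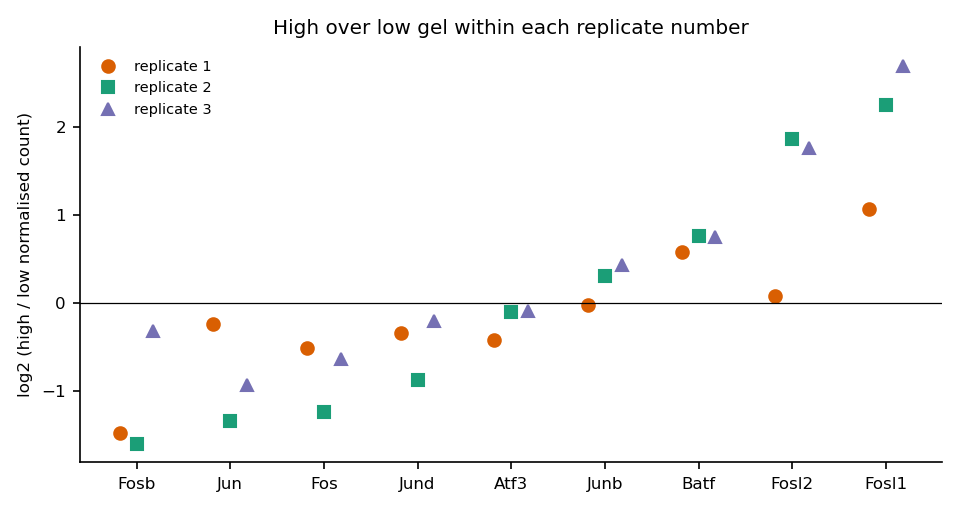
Log2 ratio of the high to the low normalised count within each replicate number for the 9 AP-1 genes, ordered by mean ratio, with 1 point per replicate number and a line at no difference. Fosl2 has 0.08 in replicate 1 and 1.86 and 1.77 in replicates 2 and 3, while Batf has 0.59, 0.77 and 0.76.

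Within a replicate number, Fos, Fosb, Jun, Jund and Atf3 were lower in the high than in the low library in 3 of 3 cases, and Fosl1, Fosl2 and Batf were higher in 3 of 3. The share of all tested genes with the same direction in 3 of 3 was not computed, so these directions are description only. Some log2 ratios were small, such as -0.10 and -0.09 for Atf3 in replicates 2 and 3 and 0.08 for Fosl2 in replicate 1. The size differed between the numbers for some members. A comparison of the high against low effect in replicate 1 with that in replicates 2 and 3, chosen after the data were seen, was fitted across all genes and called 8.36% of them. For Fosl2 the log2 fold change of high over low was 0.08 in replicate 1 and 1.82 in replicates 2 and 3, a difference of -1.73 ± 0.13 (SE, adjusted p = 2.61e-05). For Jun it was -0.24 in replicate 1 and -1.15 in replicates 2 and 3, a difference of 0.91 ± 0.19 (adjusted p = 0.0157). Fosl1 had 1.07 in replicate 1 and 2.48 in the others, but the difference of -1.41 ± 0.44 did not pass (adjusted p = 0.0707), nor did that of any other member. In this fit replicate 1 has 1 library per gel, which is assumed to vary as replicates 2 and 3 do.

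Without the replicate 1 libraries, edgeR called 6 members in high against low gels, with 2 libraries per group and no block. The spread in this subset is that between replicates 2 and 3, which differed little. Between them edgeR had 150 of 12094 genes at an unadjusted p under 0.05. The labels do not tell if they are separate cultures, so the small SEs and p-values here may reflect technical variation. Fosl1 (log2 fold change 2.48 ± 0.20, adjusted p = 2.81e-06), Fosl2 (1.81 ± 0.08, adjusted p = 3.38e-08), Batf (0.76 ± 0.10, adjusted p = 0.000140) and Junb (0.37 ± 0.08, adjusted p = 0.00459) rose. Fos (-0.97 ± 0.17, adjusted p = 0.00391) and Jun (-1.15 ± 0.11, adjusted p = 2.32e-05) fell. In middle against low gels the same subset called 5 members: Fosl1, Fosl2, Junb and Batf rose and Jun fell. In high against middle gels it called 4, with Fosl1 (0.68 ± 0.17) and Fosl2 (0.85 ± 0.07) higher and Fos (-0.81 ± 0.17) and Jun (-0.51 ± 0.11) lower. With the block the subset called the same members, except that Fos in high against middle gels was not called (edgeR adjusted p = 0.0617). Of all tested genes, this subset without the block called 12.2% higher and 14% lower in high against low gels, 3.12% and 3.3% in middle against low gels and 3.62% and 3.26% in high against middle gels. Jun in high against middle gels had the opposite sign, without a call, when only middle replicate 1 (0.17), high replicate 2 (0.10) or high replicate 3 (0.09) was left out of the unblocked fit.

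The balance between Fos and its slower relatives was followed as a ratio of levels per kb within each library. The members were chosen with earlier results of these data known, so the Fosl1 to Fos ratio is not independent of those results. Fosl1 was 0.117%, 0.159% and 0.221% of Fos in the low libraries of replicates 1, 2 and 3, 0.173%, 0.793% and 0.657% in middle and 0.350%, 1.79% and 2.24% in high gels. The 3 high libraries lay above the 3 low ones, and each replicate number had its lowest ratio in the low gel and its highest in the high gel. The mean log2 ratio of Fosl1 to Fos was higher by 2.80 in high than in low gels, a 6.97-fold difference, with 1.58, 3.49 and 3.34 in replicates 1, 2 and 3. An exact two-sided permutation test over the libraries gave p = 0.1, the smallest that 3 against 3 allows, and 0.3 after adjustment over the 3 comparisons. Middle against low gels differed by 1.48 (exact permutation p = 0.2) and high against middle by 1.32 (exact permutation p = 0.3) in the same log2 ratio.

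**Figure D5:**
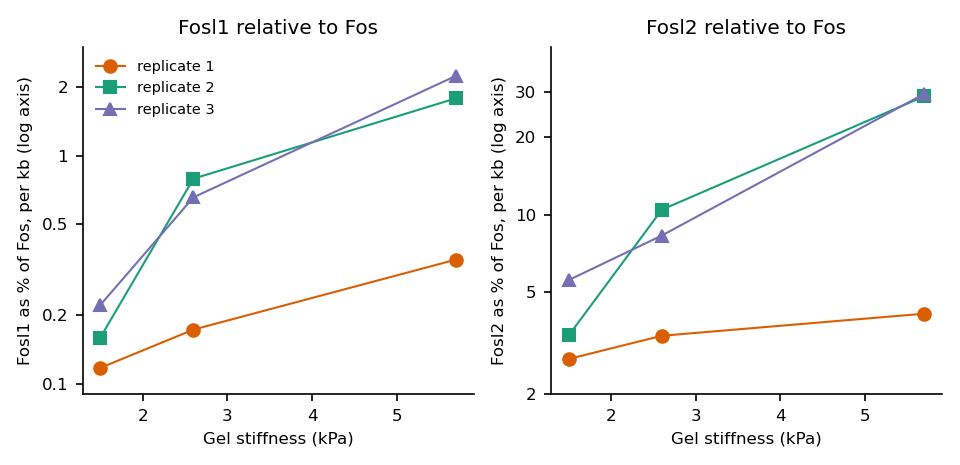
Fosl1 (left) and Fosl2 (right) as a percentage of Fos, both as normalised counts per kb on a log axis, against gel stiffness in kPa, with 1 line per replicate number. Replicates 2 and 3 reach 1.79% and 2.24% for Fosl1 and 28.9% and 29.6% for Fosl2 in the high gels, while replicate 1 reaches 0.350% and 4.11%.

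The ratio of Fosl2 to Fos, taken up after the values were seen and therefore not tested, was 2.74%, 3.38% and 5.56% in low, 3.37%, 10.5% and 8.29% in middle and 4.11%, 28.9% and 29.6% in high gels. High replicate 1 lay inside the low range.

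Of 30 other bZIP factors, which include the CREB, MAF, C/EBP and remaining ATF and BATF genes, 4 rose and 4 fell in high against low gels with the block, with a median log2 fold change of -0.05 beside -0.0026 over all tested genes. That fit called 6.72% of all tested genes higher and 8.73% lower. The counts of this list and of the 6 lists that follow are to be read against these shares. Cebpb, a C/EBP factor of granulocyte and macrophage differentiation, had 779 ± 44.0 CPM in high and 567 ± 10.2 CPM in low gels (SD, n = 3 each) and rose by 0.45 ± 0.09 (adjusted p = 0.00606). Maf, a factor of macrophage differentiation, had 93.7 ± 30.4 CPM in high and 214 ± 97.8 CPM in low gels and fell with a log2 fold change of -1.13 ± 0.13 (adjusted p = 0.000656). Batf2 (-1.19 ± 0.23, adjusted p = 0.00606) and Ddit3 (-0.31 ± 0.08, adjusted p = 0.0259) fell as well. Without the block edgeR called no gene of this list or of the 6 lists that follow in high against low gels.

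Of 34 genes of the MAP kinase cascade, which carries signals to AP-1, 3 rose and 1 fell with the block, with a median of 0.04. Mapkapk2, the kinase below p38, had 1005 ± 56.6 CPM in high and 633 ± 20.6 CPM in low gels and rose by 0.67 ± 0.09 (adjusted p = 0.00114). Map2k3 (0.49 ± 0.11, adjusted p = 0.0127) and Map2k1 (0.36 ± 0.09, adjusted p = 0.0195), MAP kinase kinases of the p38 and ERK branches, rose. Map3k1, an upstream kinase of the JNK branch, fell with -0.48 ± 0.09 (adjusted p = 0.00504). Of the 6 measured SRF and TCF regulators, which act at the serum response element of Fos, Srf (0.48 ± 0.12, adjusted p = 0.0226) and Elk1 (0.33 ± 0.09, adjusted p = 0.0385) rose and none fell, with a median of 0.13.

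Of 26 other immediate early genes, 4 rose and 4 fell, with a median of 0.09. Ier3 (0.61 ± 0.10, adjusted p = 0.00337) and Nfkbiz, which encodes an atypical inhibitor of NF-κB (0.77 ± 0.19, adjusted p = 0.0273), rose. Dusp6, a phosphatase of ERK (-0.49 ± 0.08, adjusted p = 0.00318), and Arc (-1.54 ± 0.40, adjusted p = 0.0248), which averaged only 1.11 CPM, fell. Of 21 textbook AP-1 targets that passed the filter, out of 25 listed, 3 rose and 2 fell, with a median of 0.21.

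Among these targets Ptgs2, the inducible cyclooxygenase and also an immediate early gene, had 1173 ± 112 CPM in high and 476 ± 218 CPM in low gels and rose by 1.35 ± 0.28 (adjusted p = 0.0276). Mmp12, the macrophage elastase, rose by 1.74 ± 0.37 (adjusted p = 0.0145), with 28.9, 2.38 and 3.30 CPM in high and 6.63, 1.35 and 0.904 CPM in low gels. Plau, the urokinase gene, fell with -1.09 ± 0.11 (adjusted p = 0.000161) and Ccnd1, cyclin D1, with -1.36 ± 0.22 (adjusted p = 0.00236). 

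Of 12 genes of AP-1 protein turnover and mRNA decay, 1 rose and 1 fell, with a median of -0.03. Zfp36l2, which encodes a protein that binds AU-rich elements and promotes mRNA decay, had 246 ± 50.4 CPM in high and 508 ± 22.0 CPM in low gels and fell with -1.05 ± 0.13 (adjusted p = 0.000756). Cop1, a ubiquitin ligase that targets Jun, rose by 0.32 ± 0.09 (adjusted p = 0.0423). None of 10 heat shock genes passed in either direction, with a median of -0.03, and the most abundant, Hsp90ab1 and Hspa8, had log2 fold changes of 0.17 ± 0.09 (adjusted p = 0.216) and 0.01 ± 0.08 (adjusted p = 0.932).

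In middle against low gels with the block, Cebpb of the bZIP list and Ier3 of the immediate early list rose, Plau of the target list fell, and no other gene of the 7 lists was called. Of all tested genes, that fit called 0.81% higher and 1.03% lower. In high against middle gels no gene of these lists was called.

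The genes most like Fos, Jun and Fosl1 were sought among the 9198 genes that averaged 5 CPM or more, by Pearson correlation of log2 normalised counts over the 9 libraries after subtraction of the mean of each replicate number. These libraries share gels and replicate numbers, and the genes are the highest of 9198, so the values are descriptions. For Fos they were Zfp955b (r = 0.983), Dusp1 (0.982), Ect2 (0.971), Serpinb1a (0.970) and Ccl2 (0.963). Dusp1 encodes a MAP kinase phosphatase that is itself an immediate early product, and it had a log2 fold change of high over low of -0.62 ± 0.18 with the block (adjusted p = 0.0481). For Jun they were Cd200r1 (0.995), Camk2g (0.991), Psmd8 (0.986), Dhrs3 (0.985) and Pkib (0.984). For Fosl1 they were Plxdc2 (0.993), Ptgs2 (0.993), Nr4a1 (0.993), Il4ra (0.990) and Pnrc1 (0.990). Without the subtraction some of these genes did not follow the member over the libraries. There r was -0.12 for Ect2 and -0.002 for Serpinb1a with Fos, -0.42 for Camk2g and -0.03 for Pkib with Jun, and -0.01 for Pnrc1 with Fosl1. The other genes named had 0.55 (Ccl2) or more. Nr4a1, an immediate early nuclear receptor, had a log2 fold change of 1.48 ± 0.36 and did not pass (adjusted p = 0.0551), whereas Plxdc2 rose by 1.95 ± 0.20 (adjusted p = 0.000217).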

How the data were processed

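RNA from 9 libraries was analysed. The labels' protocols give Trizol and column extraction and a stranded poly(A) kit with paired-end reads. GRCm39 was the build and HISAT2 2.0.1, HTSeq 0.6.1, cutadapt 1.9.1 and DESeq2 were the tools, per the submitters' processing notes, without their parameters. The authors deposited raw counts per gene for each library, the FPKM made from them and, as another unit, the gene size in bases. FPKM served only as an alternative scale.

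Counts were filtered with filterByExpr and normalised by TMM, and fitted in edgeR 4.0.16 (R 4.3.3) with a robust quasi-likelihood test over all 9 libraries, without the replicate number and with it as a block. Tests were two-sided, with Benjamini-Hochberg adjustment over all 12094 tested genes and a threshold of 0.05. DESeq2 1.42.0, RLE size factors, no filter and left-out libraries were alternatives. Levels per kb divide the normalised count by the deposited gene size. Scripts for tests across genes were checked on simulated data. Plots used Python 3.11.15 with matplotlib 3.10.9.

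The labels number replicates 1 to 3 in each group without saying what a number shares. With each group's mean subtracted, libraries of equal number in different groups correlated at 0.595 to 0.856 (9 pairs), above the 0.1 set for treating the numbers as paired, and this reflects mainly replicate 1 against the rest. A replicate 2 and a replicate 3 library of different groups correlated at 0.552 to 0.698. The check therefore cannot tell whether replicates 2 and 3 are each matched across groups. The square root of the dispersion was 0.337 without the block and 0.115 with it.

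Genes named are all 9 members, up to 4 called genes with the smallest adjusted p in each list (or its 2 most abundant where none was called), and the 5 genes most like Fos, Jun and Fosl1, leaving out predicted genes. The members and lists were chosen with earlier results of these data known. Promoter sequences are RefSeq's, on GRCm38.p6.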

Additional observations from a re-analysis of the deposited data

Results flagged for a closer look

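Fosl2 stood out because its high over low difference was smaller in replicate 1, with 1 library per gel, than in replicates 2 and 3. The test takes its spread from replicates 2 and 3 alone, so its p-value cannot measure variation within replicate 1. The log2 fold change of high over low was 0.08 in replicate 1 and 1.82 in replicates 2 and 3, and the difference of -1.73 passed the test fitted across all genes (edgeR adjusted p = 2.61e-05). Jun differed in the same way, with -0.24 in replicate 1 and -1.15 in replicates 2 and 3, a difference of 0.91 (adjusted p = 0.0157). The same test called 8.36% of all tested genes, and it was chosen after the data were seen.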

How the results depend on the processing

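Counts of calls depended on the replicate block and on the replicate 1 libraries. In high against low gels 1869 genes and 4 AP-1 members were called with it, against 11 genes and 0 members without it. The counts were 333 genes and 1 member with DESeq2 without the block, 1901 and 6 with DESeq2 and the block, 1905 and 4 with RLE size factors and the block, and 1859 and 2 with no filter and the block. With single libraries or whole replicate numbers left out they ranged from 0 to 3207 genes and 0 to 6 members, the highest without replicate 1. In middle against low gels they were 0 genes in the unblocked edgeR fit (318 at an unadjusted p under 0.05), 222 genes and 2 members with the block, 48 genes with DESeq2 and 462 genes and 3 members with DESeq2 and the block. RLE size factors with the block gave 233 and 2 and no filter with the block 340 and 2, and left-out libraries gave 0 to 825 genes and 0 to 5 members. In high against middle gels the unblocked edgeR fit called 0 genes (179 at an unadjusted p under 0.05). The block gave 2, DESeq2 2, DESeq2 with the block 108, RLE with the block 1, no filter with the block 40, and left-out libraries 0 to 900 genes and 0 to 4 members. The F test among the 3 groups called 0 genes in the unblocked edgeR fit (551 at an unadjusted p under 0.05). It called 1089 genes and 2 members with the block, 197 genes with DESeq2, 1436 and 4 with DESeq2 and the block, 1090 and 2 with RLE and the block, 1282 and 2 with no filter and the block, and 0 to 2535 genes and 0 to 6 members with libraries left out.

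Directions turned for Atf3, Jund, Jun and Junb, and no value with a turned sign was itself called. Atf3 in high against middle gels had a log2 fold change of 0.04 without the block, against -0.0287 with the block, -0.0140 with DESeq2 and the block, -0.0139 with RLE and the block and -0.0221 with no filter and the block. Over left-out libraries Atf3 ranged from -0.96 to 0.58 in high against low, -0.85 to 0.53 in middle against low and -0.63 to 0.57 in high against middle gels. Jund ranged from -0.54 to 0.0125 in middle against low and from -0.37 to 0.0016 in high against middle gels, Jun from -0.84 to 0.17 and Junb from -0.14 to 0.15 in high against middle gels, where Jun was called lower without replicate 1 (-0.51). Jund between replicates 1 and 2 was 0.0048, against -0.0049 with RLE size factors and -0.0021 with no filter. The log2 ratio of Fosl1 to Fos was 2.73, 1.43 and 1.30 on deposited FPKM, against 2.80, 1.48 and 1.32. Left-out libraries were run for the members and for counts of all genes, not for single genes of the lists. The cause of these changes was not tested. Fosl1, with 26 to 236 counts per library, is the member whose values depth limits most.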
